A study of Mus musculus with 24 samples.

Results

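The 10 genes described here are Slc2a1, Hk2, Pfkp, Aldoa, Pgk1, Eno1, Ldha, Pdk1, Bnip3 and Vegfa, a set of glycolysis and hypoxia response genes chosen by name and looked up by mouse gene symbol. All 10 were found in both expression tables, among 17501 genes measured in mouse embryonic stem cells (mESC) and 16024 in neural progenitor cells (NPC), of which 15572 were in both. Levels came from RNA sequencing of 24 libraries, 2 for each of 6 Htt genotypes in each cell type. Htt encodes huntingtin, the protein altered in Huntington's disease. The genotypes were wild type (WT), a knockout labelled KO, and heterozygous knock-in lines whose Htt allele carried 20, 50, 92 or 111 CAG repeats (Q20, Q50, Q92 and Q111); the growth protocol lists 89 in place of 92. The growth protocol describes the knock-in lines as grown with leukemia inhibitory factor (LIF) on irradiated mouse feeder fibroblasts, and NPC as derived from such cells and kept in FGF and EGF on laminin. Each knock-in length was 1 line, so repeat length and line cannot be told apart. Oxygen in the incubators is not given in the sources used here.

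Glycolysis breaks glucose down to pyruvate in the cytosol, and lactate dehydrogenase turns pyruvate into lactate. When oxygen is short, the hydroxylases that mark HIF-1 alpha for destruction slow down, and HIF-1 with its partner ARNT binds short sites whose core reads A or G followed by CGTG; most of the 10 genes are textbook HIF-1 targets. Pluripotent stem cells are known for high glycolytic activity, which changes as they differentiate into neural cells.

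The sequence before a RefSeq start of each gene was read to see what the 10 genes shared besides their function. All 10 were matched in RefSeq on build GRCm38.p6, and the 250 bases before the annotated start were searched for ACGTG and GCGTG on both strands; where the RefSeq table listed several starts, the most upstream of those was used. For Ldha and Aldoa the window lies inside the gene span that GENCODE M21 gives, whose outermost start is farther upstream. The window held either word in 8 of 10 genes, beside 38.6% of 32851 such windows over all RefSeq starts. ACGTG was present in 5 genes, against 16.6% of all windows, and GCGTG in 5, against 28.2%. The 32851 windows come from 27025 gene symbols, so some genes count more than once, while each of the 10 gave 1 window. The windows were not matched for base composition, so these shares are a rough background only. The palindrome CACGTG counts once on each strand, so matches overlap there. Ldha and Bnip3 had 5 matches each, Pfkp 3, Slc2a1, Hk2 and Pgk1 2 each, Eno1 and Pdk1 1 each, and Aldoa and Vegfa 0. A match is a description of the letters and not a binding site. The windows printed here belong to Bnip3, Ldha, Pgk1 and Aldoa, which had the 4 largest differences between the mESC replicates described below, and to Hk2, which did not move with them. They cover chr7:138909507-138909756 (minus strand), chr7:46845554-46845803 (plus strand), chrX:106186850-106187099 (plus strand), chr7:126800448-126800697 (minus strand) and chr6:82774455-82774704 (minus strand), in that order. Each is written 5′ to 3′ along the gene, with the matched words, on either strand, in capitals.
Bnip3: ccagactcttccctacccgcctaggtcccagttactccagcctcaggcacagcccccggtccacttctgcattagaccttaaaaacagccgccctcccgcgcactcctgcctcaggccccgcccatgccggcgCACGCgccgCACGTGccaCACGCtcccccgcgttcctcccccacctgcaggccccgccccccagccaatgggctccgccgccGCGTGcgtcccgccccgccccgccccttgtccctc
Ldha: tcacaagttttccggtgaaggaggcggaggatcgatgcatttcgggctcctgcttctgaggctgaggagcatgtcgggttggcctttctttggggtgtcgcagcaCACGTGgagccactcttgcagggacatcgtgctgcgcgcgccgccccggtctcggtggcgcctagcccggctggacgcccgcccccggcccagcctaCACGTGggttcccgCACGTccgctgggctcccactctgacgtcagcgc
Pgk1: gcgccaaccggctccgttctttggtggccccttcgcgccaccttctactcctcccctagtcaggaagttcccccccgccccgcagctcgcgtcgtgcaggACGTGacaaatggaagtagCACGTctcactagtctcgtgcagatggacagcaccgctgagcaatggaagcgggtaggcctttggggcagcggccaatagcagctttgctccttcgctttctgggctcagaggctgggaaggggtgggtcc
Aldoa: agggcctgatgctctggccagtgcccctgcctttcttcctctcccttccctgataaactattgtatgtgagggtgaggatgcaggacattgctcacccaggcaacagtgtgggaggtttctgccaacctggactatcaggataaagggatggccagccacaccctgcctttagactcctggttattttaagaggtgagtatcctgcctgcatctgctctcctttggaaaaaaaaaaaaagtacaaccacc
Hk2: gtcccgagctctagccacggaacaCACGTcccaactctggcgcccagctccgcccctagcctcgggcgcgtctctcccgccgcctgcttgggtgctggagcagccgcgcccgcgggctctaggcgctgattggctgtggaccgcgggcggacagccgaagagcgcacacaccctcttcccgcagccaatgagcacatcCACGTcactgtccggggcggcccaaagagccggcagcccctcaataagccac
Bnip3 and Ldha carried the most words, Pgk1 had both of its words close together and Hk2 had them far apart. The Aldoa window held none.

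Depth, recovered as whole reads from the deposited values, was 58546211 to 81502284 in the 12 mESC libraries and 48525333 to 118038952 in the 12 NPC libraries. Levels are given as the deposited normalised CPM (read counts scaled to library size), and changes as log2(CPM + 1), a scale on which weakly expressed genes appear to change less than they do. A gene was called at an adjusted p under 0.05 in limma, fitted over all 13916 genes tested in mESC or 13206 in NPC; all 10 genes were among those tested. The labels call the libraries of a group biological samples and say no more on how the cultures were separated, so p-values measure the spread between these libraries. Htt in mESC was 139 and 68.5 CPM in the libraries labelled KO, against 124 and 113 in WT, so the Htt level of the first of them was not below WT, and the group is the libraries labelled KO. In NPC Htt was 100 and 94.9 CPM in KO, against 137 and 177 in WT. The labelled cell types carried their markers: Pou5f1 was 280 to 880 CPM in mESC, and Fabp7 was 1194 to 3921 CPM in NPC. The exception was Q20 NPC, which also held Pou5f1 at 90.1 and 87.4 CPM, while the 10 other NPC libraries stood at 0 to 0.405 CPM.

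Per kilobase of the longest transcript with a consensus coding sequence, Aldoa was the most abundant of the 10 in both cell types, with a median of 1047 CPM per kb in mESC and 515 in NPC. Aldoa encodes aldolase A, which splits fructose 1,6-bisphosphate. Eno1, Ldha and Pgk1 followed in that order in both, at 744, 458 and 326 CPM per kb in mESC and 356, 291 and 251 in NPC. Over the 12 libraries each of these 4 genes overlapped its neighbour in that order, and in mESC Aldoa (623 to 1838 CPM per kb) lay wholly above Pgk1 (193 to 607). All 4 lay above the ranges of the other 6 genes in both cell types. Slc2a1 came next in mESC, at 121 CPM per kb, and overlapped Pdk1, Pfkp and Bnip3. Pdk1 at 77.6, Pfkp at 75.2, Hk2 at 49.4 and Bnip3 at 26.1 CPM per kb also overlapped. Vegfa had the lowest median in mESC, at 4.40, and overlapped Bnip3, which ran from 4.71 to 153 CPM per kb. In NPC, Hk2, Slc2a1, Vegfa, Pdk1 and Bnip3 lay close together, from 16.8 down to 8.92 CPM per kb with overlapping ranges, and Pfkp had the lowest median at 4.09. The tables of both cell types were scaled separately, so these levels were not tested against each other.

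In mESC the differences lay between the replicate letters. Each genotype had a library lettered a and a library lettered b, and what the letters stand for is not given in the sources used here. Of the 10 genes, 7 were called, all of them lower in the b libraries, lower in 6 of 6 genotypes and with no overlap between the 6 a and the 6 b libraries. Over all genes 43.3% were called between the letters and 22.8% were called lower in b, so a difference between the letters was common. Over all genes 21.7% were lower in b in 6 of 6 genotypes, and 8.53% were lower with no overlap between the letters. edgeR called the same 7 genes and 42.4% of all genes. The median log2 change was -0.79 for the 10 genes and -0.00494 for all genes tested. The 10 genes together summed to between 7192 and 9544 CPM in the a libraries and between 4250 and 5167 CPM in the b libraries.

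**Figure D1:**
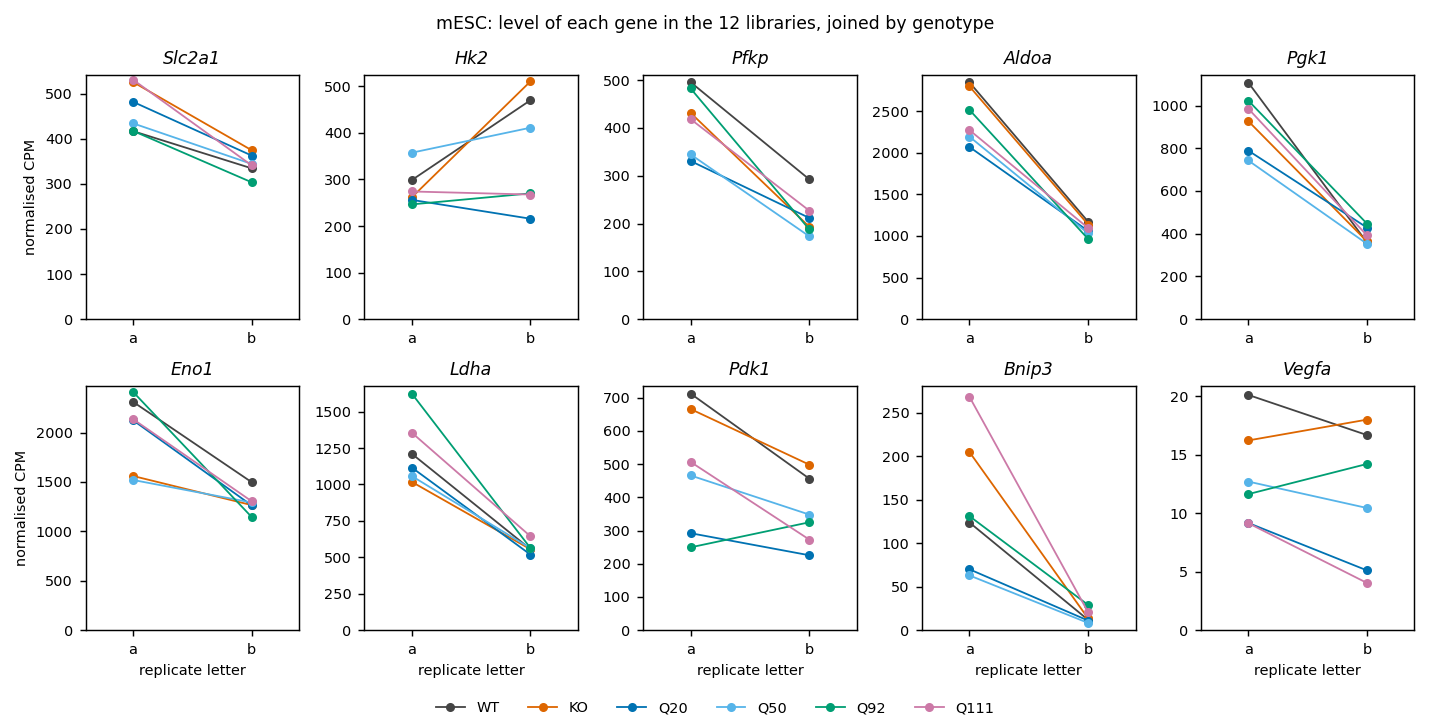
Normalised CPM of each of the 10 genes in the 12 mESC libraries, with replicate letter on the x axis and the 2 libraries of a genotype joined by a line. Slc2a1, Pfkp, Aldoa, Pgk1, Eno1, Ldha and Bnip3 were lower in b in all 6 genotypes, while the lines of Hk2, Pdk1 and Vegfa cross or rise.

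Bnip3 showed the largest difference. It encodes a mitochondrial outer membrane protein that takes part in the removal of mitochondria (mitophagy), and lies at chr7:138890836-138909519 (GRCm38, minus strand, up to 6 exons). Its level in the a libraries was lowest at 62.8 CPM, with a median of 127 and a highest value of 268, and in the b libraries it was 8.27, 12.7 and 29.0 CPM. The lowest a library was thus above the highest b library, and the mean in a was 9.13 times that in b, with a ratio of 4.52 to 15.2 within the genotypes. The log2 change was -3.04 (SE 0.22, limma adjusted p 0.000136). A pseudogene and an antisense gene overlap Bnip3 on the opposite strand, and use of strand in the counting is not given in the sources used here.

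Aldoa, Pgk1 and Ldha formed a second group, each lower in b in all 6 genotypes. Aldoa (chr7:126795234-126800751, minus strand) ran from 2071 through a median of 2395 to 2848 CPM in a and from 965 through 1079 to 1172 CPM in b. Pgk1 (chrX:106187100-106203699, plus strand) encodes phosphoglycerate kinase, the first step of glycolysis to return ATP. Its level was 743, 956 and 1107 CPM (lowest, median and highest) in a and 353, 378 and 447 CPM in b. Ldha (chr7:46841475-46855627, plus strand), the lactate dehydrogenase subunit that favours lactate formation, was 1018, 1163 and 1624 CPM in a and 518, 559 and 644 CPM in b. In all 3 genes the b libraries lay wholly below the a libraries. The log2 changes were -1.18 (SE 0.07) for Aldoa, -1.24 (SE 0.09) for Pgk1 and -1.10 (SE 0.09) for Ldha, with limma adjusted p of 0.000111, 0.000148 and 0.00017.

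Eno1 (chr4:150236721-150248879, plus strand), the enolase that makes phosphoenolpyruvate, ran from 1520 through 2131 to 2412 CPM in a and from 1146 through 1279 to 1498 CPM in b, a log2 change of -0.62 (SE 0.11, limma adjusted p 0.00349). The letters did not overlap, but the difference was small in KO and Q50, at -0.30 and -0.23, and large in Q92, at -1.07. Eno1b, a near-identical copy, was listed at 925 to 1782 CPM in the same libraries, so how reads were split between both is unknown and the level of Eno1 is uncertain.

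The RNA of 1 glucose transporter and of 1 phosphofructokinase moved in the same direction. Slc2a1 (chr4:119108711-119137983, plus strand) encodes GLUT1, the glucose transporter found in most tissues. It was 417, 458 and 531 CPM (lowest, median and highest) in a and 304, 343 and 375 CPM in b, the smallest of the called changes at -0.44 (SE 0.06, limma adjusted p 0.00101). Pfkp (chr13:6579768-6648777, minus strand), the platelet-type phosphofructokinase, was 331, 425 and 495 CPM in a and 173, 202 and 292 CPM in b, a log2 change of -0.96 (SE 0.10, limma adjusted p 0.000349). Its lowest a library, Q20, lay just above its highest b library, WT. Pitrm1 overlaps Pfkp on the opposite strand.

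Hk2, Pdk1 and Vegfa were not called between the letters. Hk2 (chr6:82725025-82774454, minus strand), a hexokinase that phosphorylates glucose at the mitochondrial surface, was higher in b in 4 of 6 genotypes. It was 246, 268 and 357 CPM in a and 216, 341 and 511 CPM in b, a log2 change of 0.28 (SE 0.16, limma adjusted p 0.185). WT and KO had the largest differences in that direction, from 299 to 470 CPM and from 262 to 511 CPM, while Q20 was 256 in a and 216 in b. Pdk1 (chr2:71873224-71903858, plus strand), the kinase that switches off pyruvate dehydrogenase, was lower in b in 5 of 6 genotypes, at -0.39 (SE 0.15, limma adjusted p 0.0639). The exception was Q92, at 249 CPM in a and 325 CPM in b, and with either Q92 library left out Pdk1 was called, at -0.55 (limma adjusted p 0.00585 and 0.00589). Vegfa (chr17:46016993-46032369, minus strand), the growth factor that draws in blood vessels, was 9.14 to 20.1 CPM in a and 4.03 to 18.0 CPM in b, lower in b in 4 of 6 genotypes, with a log2 change of -0.31 (SE 0.18, limma adjusted p 0.211).

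The rest of the pathway showed a similar split. Of 18 other glycolysis genes, 13 were lower in b and 2 higher, with a median log2 change of -0.59. The 3 largest falls were in Aldoc (-1.77, limma adjusted p 0.00148), a second aldolase, in Tpi1 (-1.58, limma adjusted p 0.000376), the triose phosphate isomerase, and in Ldhb (-1.53, limma adjusted p 0.000136), the other lactate dehydrogenase subunit. Tpi1 was 441 to 901 CPM in a and 166 to 246 CPM in b. Pgam1 (1.19) and Pfkfb4 (0.80) were higher in b, and are named because they went the other way, after their values were seen. Pgam1, a phosphoglycerate mutase that works between Pgk1 and Eno1, was 135 to 466 CPM in a and 391 to 546 CPM in b, so the letters overlapped through Q50 a.

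Of 20 other hypoxia targets, 14 were lower in b and 2 higher, with a median of -0.77. P4ha1 (-1.94, limma adjusted p 0.000106), a collagen prolyl hydroxylase subunit, was 141 to 264 CPM in a and 39.0 to 56.6 CPM in b. Ddit4 (-1.75, limma adjusted p 0.000343), an inhibitor of mTORC1, and Car12 (-1.45, limma adjusted p 0.000588), a carbonic anhydrase, were the next largest among genes of at least 5 CPM whose letters did not overlap. Kdm3a, a histone demethylase also known as a HIF-1 target, went the other way at 0.99 (limma adjusted p 0.00019), from 151 to 214 CPM in a and from 321 to 392 CPM in b; the other higher gene was Pfkfb4. Pfkfb3, Pfkfb4 and Slc2a3 stand in both lists.

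Among 11 regulators of the hypoxia response, 3 were higher in b (Epas1, Hif1an and Egln2) and 2 lower (Hif3a and Egln3), named after their values were seen. Hif1a itself was 190 to 245 CPM in a and 228 to 272 CPM in b, a log2 change of 0.20 (limma adjusted p 0.0527). Of 10 genes that govern the entry of pyruvate into mitochondria, 2 were higher and 4 lower. Mpc1, a subunit of the mitochondrial pyruvate carrier, was higher in b at 0.83 (limma adjusted p 0.00157), and Pdk4, a relative of Pdk1, was lower at -1.40 (limma adjusted p 0.00065).

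**Figure D2:**
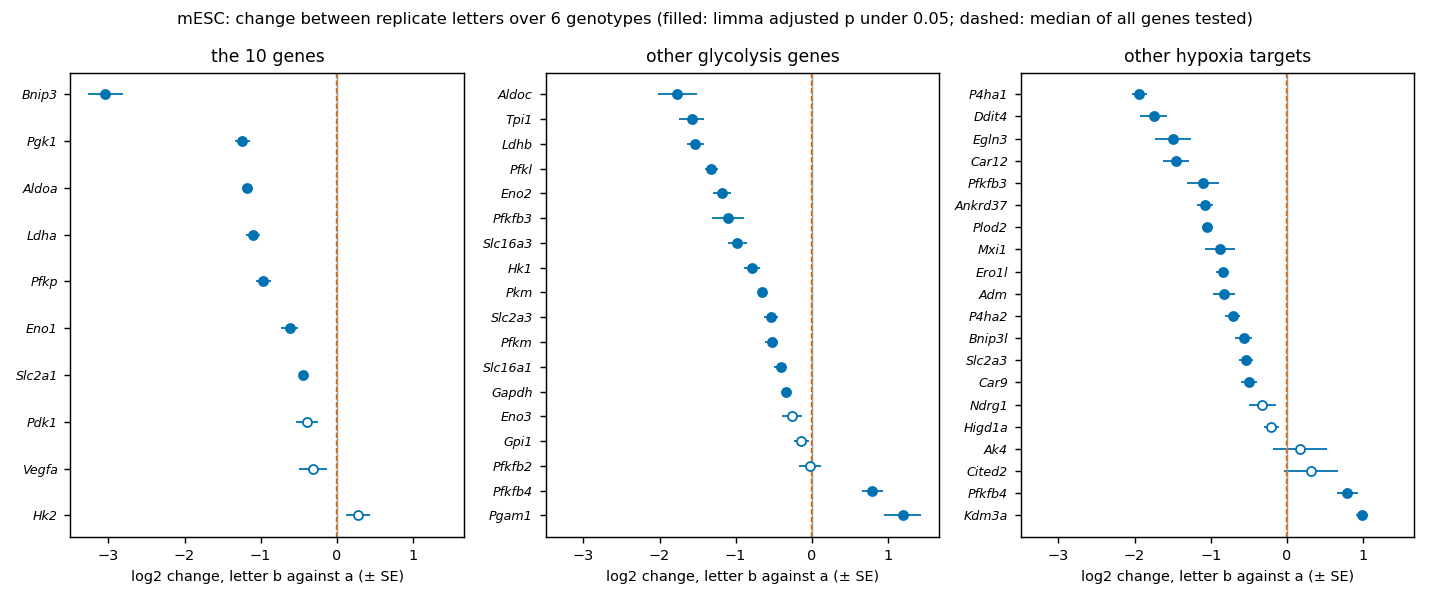
Log2 change of letter b against letter a in mESC with its standard error (x axis) for the 10 genes, 18 other glycolysis genes and 20 other hypoxia targets (y axis); filled points were called and the dashed line is the median of all genes tested. Bnip3 lies farthest to the left at -3.04, and Hk2, Pgam1, Pfkfb4, Kdm3a, Ak4 and Cited2 lie to the right of 0, of which Hk2, Ak4 and Cited2 were not called.

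Over all genes 20.5% were called higher in b. Marker genes and depth were also compared between the letters, and the marker sums and the depths overlapped. Of 10 pluripotency markers 5 were higher in b and 1 lower, and their summed level was 2182 to 4031 CPM in a and 2559 to 3810 CPM in b. Of 10 feeder fibroblast markers, summed at 15.2 to 61.2 CPM in a and 12.6 to 71.5 CPM in b, 7 were tested, 3 were higher and 2 lower. Of 10 neural progenitor markers, summed at 56.1 to 211 CPM in a and 60.6 to 285 CPM in b, 7 were tested, 1 was higher and 1 lower. The sum of 8 astrocyte markers was 65.4 to 379 CPM in a and 16.7 to 108 CPM in b, with Aldoc the 1 called of 5 tested. Depth was 58546211 to 73413219 reads in a and 59036760 to 81502284 in b. Their part in the result was not tested. In bulk RNA, fewer cells of a type and less RNA per cell cannot be told apart. Between the NPC letters, 0 of the 10 genes and 0% of all genes were called with limma, and edgeR called 0 of all genes. Of the 10, 2 had an unadjusted p under 0.05 in limma. In NPC 9 of the 10 log2 changes were above 0, with Vegfa the exception. Their median was 0.231, against 0.0106 for all genes tested. Hk2, Pgk1 and Eno1 were higher in b in 6 of 6 genotypes, but the letters overlapped for all 10 genes. The share of all genes with that order in NPC was not counted.

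Between genotypes in mESC, 0 of the 10 genes were called with limma in any of the comparisons. The counts at an unadjusted p under 0.05 were 2 for Q20 against WT and 0 for KO against WT, for Q50, Q92 and Q111 against Q20, and for the trend along repeat length among the 4 knock-in lines. For any difference among the 6 genotypes there were 0 calls, with an unadjusted p under 0.05 for 2 genes. With edgeR 0 of the 10 were called in each of these comparisons, beside 0.0144%, 0.0862%, 0.00719%, 0.00719%, 0%, 0% and 0.151% of all genes for KO, Q20, Q50, Q92, Q111, the trend and any difference. The background with limma was low as well, with 0.0144% of all genes called for KO, 0.323% for Q20 against WT, 0.00719% for Q50 and for Q92, 0% for Q111, 0% for the trend and 0.201% for any difference. With the letter as a block, which removes the shared difference between a and b, 10.6% of all genes were called for Q20 against WT, and Pdk1 and Vegfa were called lower in Q20. In the other blocked comparisons 0 of the 10 were called, beside 0.115% of all genes for KO, 0.984% for Q50, 0.46% for Q92, 0.0575% for Q111, 0% for the trend and 8.67% for any difference. Pdk1 was 292 and 226 CPM in Q20 against 713 and 457 in WT, a log2 change of -1.15 (limma adjusted p 0.213, or 0.033 with the block). Vegfa was 9.16 and 5.11 CPM in Q20 against 20.1 and 16.7 in WT, a log2 change of -1.29 (limma adjusted p 0.209, or 0.0432 with the block). Both Q20 libraries lay below both WT libraries for each gene. The largest change of the libraries labelled KO against WT was 0.45 in Bnip3. Its SE of 1.82 is from the fit without the block, so it includes the difference between a and b.

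In NPC the differences ran between genotypes. A test for any difference among the 6 genotypes called 3 of the 10 genes, Pfkp (limma adjusted p 0.00136), Slc2a1 (limma adjusted p 0.0114) and Pdk1 (limma adjusted p 0.0218), while 38% of all genes were called. The 2 WT libraries stood apart from each other for several of the 10 genes. Hk2 was 19.5 CPM in WT a and 112 in WT b, Ldha was 205 and 737 CPM, and Eno1 was 330 and 763 CPM. In a fit without both WT libraries, tried after seeing the data, 7 of the 10 were called (Slc2a1, Hk2, Pfkp, Aldoa, Pgk1, Pdk1 and Bnip3), beside 56.3% of all genes. The count was 6 without WT a and 8 without WT b, beside 52.9% and 59.1% of all genes. It was 1, Pfkp, without either Q20 library, beside 23.9% without Q20 a and 24.9% without Q20 b. Without the whole Q20 line, also tried after seeing the data, Pfkp and Pdk1 were called and Slc2a1 was not (limma adjusted p 0.166), beside 19.8% of all genes.

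**Figure D3:**
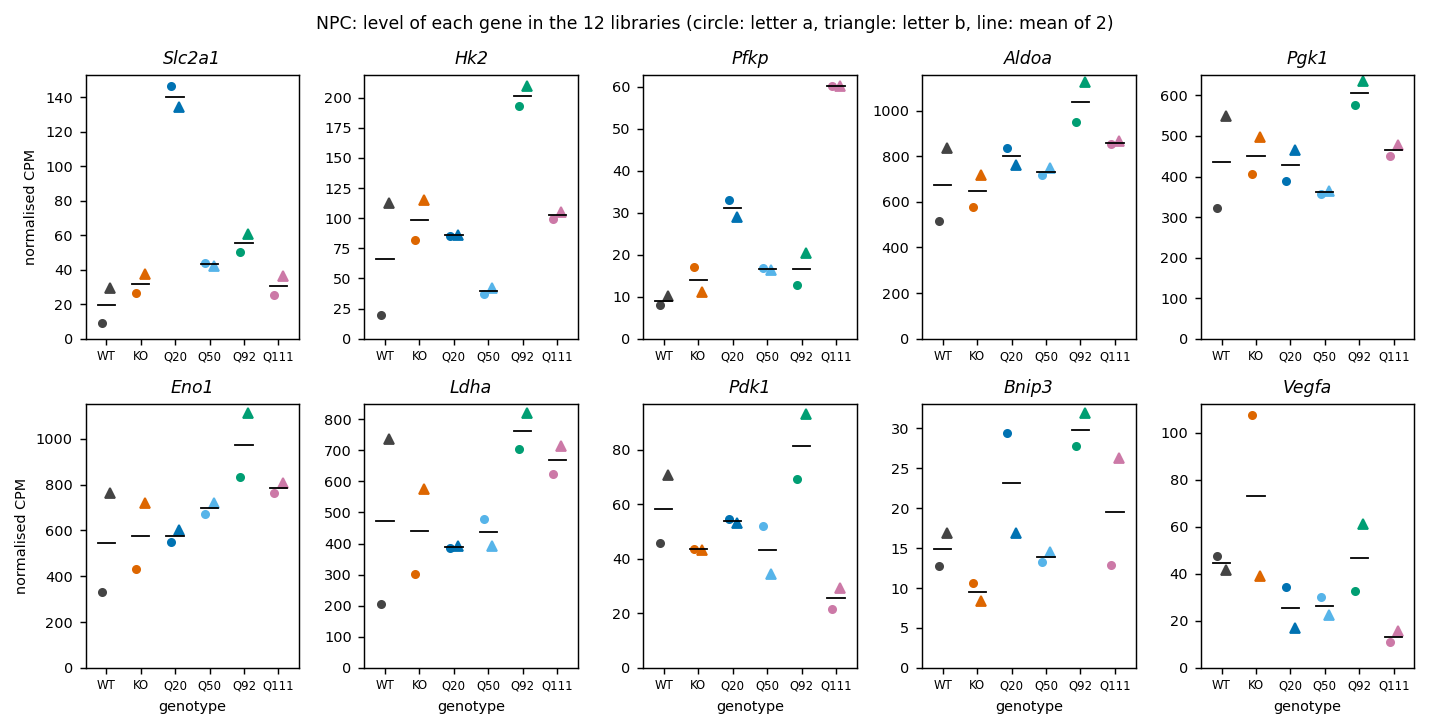
Normalised CPM of each of the 10 genes in the 12 NPC libraries by genotype (x axis), with circles for letter a, triangles for letter b and a line at the mean of 2. Slc2a1 was highest in Q20, at 146 and 135 CPM, Pfkp in Q111, at 60.1 and 60.3 CPM, and Hk2 in Q92, at 193 and 210 CPM, and the 2 WT libraries were far apart for Hk2, Ldha and Eno1.

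Slc2a1 varied most among the NPC genotypes. It was 146 and 135 CPM in Q20, 50.0 and 60.7 in Q92, 44.0 and 42.2 in Q50, 26.4 and 37.3 in KO, 25.2 and 36.1 in Q111, and 9.14 and 29.5 in WT. Both Q20 libraries were above all others, and the KO, Q111 and WT libraries overlapped. Q20 against WT gave a log2 change of 3.01 (SE 0.45, limma adjusted p 0.00258), Q50 against Q20 one of -1.68 (SE 0.45, limma adjusted p 0.0332) and Q111 against Q20 one of -2.18 (SE 0.45, limma adjusted p 0.00941). Q92 against Q20 was -1.33 (limma adjusted p 0.0596). These comparisons share the Q20 libraries. With WT in place of Q20 as the reference, Slc2a1 was higher and not called in Q50, Q92 and Q111, at 1.32, 1.67 and 0.83 (limma adjusted p 0.137, 0.0563 and 0.228).

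Pfkp ranked differently. It was 60.1 and 60.3 CPM in Q111, 33.0 and 29.0 in Q20, 16.8 and 16.3 in Q50, 12.7 and 20.5 in Q92, 17.1 and 11.1 in KO, and 7.92 and 10.2 in WT. Both Q111 libraries were above both Q20 libraries, which were above the other 8. The changes were 1.68 for Q20 against WT (SE 0.27, limma adjusted p 0.004), -0.89 for Q92 against Q20 (limma adjusted p 0.0428) and 0.94 for Q111 against Q20 (limma adjusted p 0.0351). For Q92 against Q20, Pfkp was not called without Q92 a or any 1 of the Q20, Q50 or Q111 libraries (limma adjusted p 0.0671 to 0.244), nor with both groups alone (limma adjusted p 0.0574). For Q111 against Q20 it was not called without any 1 of the Q20, Q50 or Q111 libraries (limma adjusted p 0.0562 to 0.151). Against WT, Pfkp in Q111 was higher by 2.61 (limma adjusted p 0.000705).

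Over the comparisons in NPC, 2 of the 10 were called for Q20 against WT (Slc2a1 and Pfkp, both higher) beside 14.5% of all genes, and 9.97% called higher. For Q50 against Q20 it was 1 (Slc2a1, lower) beside 18.8% (10.7% lower), for Q92 against Q20 1 (Pfkp, lower) beside 25.8% (15.9% lower), and for Q111 against Q20 3 (Slc2a1 and Pdk1 lower, Pfkp higher) beside 28.3% (16.1% lower and 12.2% higher). Read against these shares, the counts say nothing particular about the 10 genes as a group. With the libraries of WT and Q20 alone 0 were called for Q20 against WT (limma adjusted p 0.0914 for Slc2a1 and 0.0636 for Pfkp), beside 3.6% of all genes. Within Q20 and the other line alone, 3 genes were called in Q50, 5 in Q92 and 6 in Q111, beside 29.7%, 46.6% and 50.8% of all genes. Leaving out 1 library gave 2 to 4 calls for Q20 against WT, 4 of them without WT b. It gave 0 to 3 for Q50, 0 to 6 for Q92 and 0 to 3 for Q111, with 0 or 1 without either library of Q20 in each of these 3 comparisons. Over these fits the share of all genes called ran from 7.68% to 21.6% for Q20 against WT, 9.53% to 26.8% for Q50, 12.3% to 37.8% for Q92 and 11.9% to 41.6% for Q111. Slc2a1 was not called for Q50 against Q20 without any 1 of the Q20, Q50 or Q92 libraries (limma adjusted p 0.0543 to 0.149). For Q111 against Q20 it was not called without Q20 a (limma adjusted p 0.0598) or Q111 a (0.0663).

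Q20 NPC libraries, which had the highest Slc2a1, stood apart in their cell type markers. Of 10 pluripotency markers 7 were measured in NPC; their sum was 179 and 176 CPM in Q20 and 4.82 to 26.6 CPM in the 10 other libraries, where 4 or 5 of the 7 were under 0.5 CPM. Lin28a was 70.8 and 69.1 CPM in Q20 and at most 0.405 CPM elsewhere. The neuronal gene Stmn2 was 103 and 128 CPM in Q20 and at most 5.51 CPM elsewhere, while the sum of 10 neuron markers, 878 and 1047 CPM in Q20, overlapped the 1023 to 1728 CPM of the other libraries. Of these 10 neuron markers 5 were called higher and 2 lower in Q20 against WT, with a median log2 change of 0.96. Against Q20, 2 were higher and 6 lower in Q50, 1 and 7 in Q92, and 1 and 5 in Q111. The sum of 10 feeder fibroblast markers was 312 and 253 CPM in Q20 and 896 and 918 CPM in Q50, against 2.69 to 38.4 CPM in the other 8 libraries. The sum of 8 astrocyte markers was highest in Q20, at 2661 and 2365 CPM, but reached 2209 CPM in WT a and was 345 to 602 CPM in Q92 and Q111. Pfkp was higher in Q111 than in Q20, and in Q111 these sums were 12.5 and 11.8 CPM for pluripotency, 3.03 and 2.69 CPM for feeder fibroblast and 356 and 345 CPM for astrocyte markers. Their part in the level of Slc2a1 was not tested.

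Aldoa, Pgk1, Eno1 and Hk2 were highest in Q92. Aldoa was 950 and 1127 CPM in Q92 and 514 to 865 CPM in the 10 other NPC libraries. Pgk1 was 577 and 636 CPM in Q92 against 321 to 548 elsewhere, and Eno1 835 and 1114 against 330 to 805, so in these 3 genes both Q92 libraries were above the other 10. Ldha was 705 and 819 CPM in Q92, 625 and 713 in Q111, 387 and 393 in Q20 and 479 and 393 in Q50, while WT b was 737 CPM. Hk2 was 193 and 210 CPM in Q92, 99.7 and 105 in Q111, 85.4 and 85.9 in Q20 and 37.1 and 42.3 in Q50, so the 4 knock-in lines did not overlap. In the WT and KO libraries Hk2 ran from 19.5 to 115 CPM, so for this gene too both Q92 libraries were above the other 10. How many of all genes had this order was not counted. None of Aldoa, Pgk1, Eno1, Ldha and Hk2 was called for Q92 against Q20 with limma (Hk2 1.22, limma adjusted p 0.183, and Ldha 0.96, limma adjusted p 0.206). Fitted with the libraries of Q92 and Q20 alone, Hk2, Pgk1, Eno1 and Ldha were called higher in Q92 and Slc2a1 lower. In that fit 23.7% of all genes were called higher and 22.9% lower. With all 12 libraries, 5 of the 18 other glycolysis genes were called lower and 0 higher in Q92 against Q20. The shares of all genes were 15.9% lower and 9.88% higher. In that fit 1 of the 10 genes was called lower and 0 higher. The 18 other genes summed to 4665 and 5330 CPM in Q92 and 6086 and 5649 CPM in Q20. That sum includes Aldoc, also an astrocyte marker, with a log2 change of -1.85 (limma adjusted p 0.000116). The sum without Aldoc was not computed.

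Along repeat length in NPC, the trend called 2 of the 10 genes beside 22% of all genes. Ldha was higher by 0.96 over the 91 repeats from 20 to 111 (SE 0.19, limma adjusted p 0.0119) and Slc2a1 lower, with a log2 change of -1.70 (SE 0.44, limma adjusted p 0.0293). With 1 mean value per line, or without the Q20 line, 0 were called. The share of all genes called was not computed for either fit, so the 0 is not read as a trait of these genes. Ldha kept its sign without Q20, at 1.06 (limma adjusted p 0.0942), and Slc2a1 shrank to -0.49 (limma adjusted p 0.594). Slc2a1 also missed the threshold without either Q20 or either Q111 library (limma adjusted p 0.0638 to 0.125).

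Pdk1, Bnip3 and Vegfa had low levels in NPC. Pdk1 was 69.1 and 93.2 CPM in Q92, 45.9 and 70.6 in WT, 54.6 and 53.1 in Q20, 51.9 and 34.5 in Q50, 43.6 and 43.4 in KO, and 21.5 and 29.4 in Q111. Both Q111 libraries were the lowest of the 12, and Q111 against Q20 gave a log2 change of -1.07 (SE 0.28, limma adjusted p 0.0242). That call was lost without any 1 of the Q20 or Q111 libraries (limma adjusted p 0.051 to 0.14). Bnip3 was 27.8 and 31.9 CPM in Q92 and 10.6 and 8.32 in KO, with Q20 and Q111 spread over 16.9 to 29.4 and 12.9 to 26.2. Vegfa was 108 and 39.0 CPM in KO and 11.1 and 15.5 in Q111, where both were below the other 10 libraries. Neither was called in any NPC comparison fitted on all 12 libraries with limma, although for any difference Bnip3 was called without the WT line or without either Q111 library, and Vegfa without KO b. In the full fits the smallest adjusted p, for any difference among genotypes, were 0.0652 and 0.0608.

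The libraries labelled KO against WT in NPC called 0 of the 10 genes with limma, with 0 at an unadjusted p under 0.05, beside 1.42% of all genes, and edgeR called 0, beside 0.81%. The largest log2 changes were 1.02 for Hk2 (SE 0.63, limma adjusted p 0.572) and 0.88 for Slc2a1 (SE 0.45, limma adjusted p 0.472). Leaving out WT b left WT with 1 library assumed to vary like the other groups, so calls in that fit are not read as a result for these genes. Ndrg1, a hypoxia target outside the 10, was 8.80 and 9.46 CPM in KO and 0.368 and 1.25 CPM in WT, a log2 change of 2.53 (limma adjusted p 0.0269). It was the 1 gene called among 19 other hypoxia targets tested, with 0 of 18 other glycolysis genes.

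Among other pathway genes in NPC, 5 of 18 other glycolysis genes were higher and 0 lower in Q20 against WT, beside 9.97% of all genes higher and 4.57% lower. Slc16a3, the lactate exporter MCT4, was 59.0 and 65.1 CPM in Q20 and 2.93 and 18.2 in WT (2.86, limma adjusted p 0.0204). Slc2a3, the high-affinity transporter GLUT3, was 91.4 and 174 CPM in Q20 and 31.0 and 36.5 in WT (1.87, limma adjusted p 0.00245), and Eno2, the neuronal enolase, rose by 1.26 (limma adjusted p 0.0153). In Q111 against Q20, 7 were lower and 1 higher, beside 16.1% of all genes lower and 12.2% higher. In Q50 it was 3 lower and 1 higher, beside 10.7% and 8.05%, and in Q92 5 lower and 0 higher, beside 15.9% and 9.88%. Aldoc fell by 3.53 on the log2 scale (limma adjusted p 5.4e-06), from 1244 and 1091 CPM in Q20 to 102 and 97.4 CPM in Q111; Aldoc is also one of the 8 astrocyte markers. Of 11 hypoxia regulators, 1 was higher and 2 lower than in Q20 in Q111, with Hif3a at -2.49 (limma adjusted p 4.23e-05), a level of 0.122 and 0.312 CPM in Q111. In Q20 against WT 1 regulator was higher and 0 lower, in Q50 2 and 1, and in Q92 0 and 1. Of 19 other hypoxia targets, 3 were higher and 0 lower in Q20 against WT; against Q20, 1 was higher and 3 lower in Q50, 1 and 3 in Q92, and 1 and 5 in Q111. Of 10 genes of pyruvate entry, 0 were higher and 2 lower in Q20 against WT, while against Q20 it was 2 and 1 in Q50, 2 and 2 in Q92, and 2 and 1 in Q111.

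Whether a genotype effect differed between cell types was tested over 12321 genes in both tables. For Q20 against WT, 1 of the 10 was called, Slc2a1, beside 4.27% of all genes. Its level in mESC was 482 and 363 CPM in Q20 and 417 and 335 in WT, so the change there was 0.16, against 3.01 in NPC, a difference of 2.84 (SE 0.56, limma adjusted p 0.00722). For Q111 against Q20 it was again Slc2a1, beside 4.97%, with a difference of -2.21 (SE 0.56, limma adjusted p 0.0334); both share the Q20 libraries. The second call was lost without any 1 of the NPC libraries of Q20 or Q111, Q20 b in mESC or Q111 a in mESC (limma adjusted p 0.0605 to 0.142), and with a filter at a mean of 5 CPM (limma adjusted p 0.052). With limma 0 of the 10 were called for KO against WT, for Q50 or Q92 against Q20 or for the trend, beside 0.0406%, 4.59%, 5.96% and 4.86% of all genes; the counts at an unadjusted p under 0.05 were 0, 2, 0 and 1. With the letter as a block in both cell types the counts were 2 for Q20 against WT (Slc2a1 and Pfkp), 1 for Q50 (Slc2a1), 1 for Q92 (Pfkp) and 2 for Q111 (Slc2a1 and Pdk1), beside 10.7%, 11.3%, 14.6% and 16.6% of all genes.

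Several of the 10 genes are 1 of a family of isozymes, and their share of it is free of the scaling of the tables. These families were drawn up after the files were read and carry no test. In mESC Aldoa made up 98.1% to 99.6% of aldolase CPM per kb over the 12 libraries, and in NPC 42.4% to 94.1%, with the rest in Aldoc. Hk2 made up 72.5% to 90.0% of Hk1 and Hk2 in mESC and 13.0% to 71.3% in NPC, so the cell types did not overlap. Pfkp was 31.2% to 45.3% of the phosphofructokinases in mESC and 2.20% to 16.7% in NPC, where Pfkm, the muscle type, had 36.4% to 70.9%. Pdk1 made up 62.9% to 83.2% of the 4 pyruvate dehydrogenase kinases in mESC and 17.7% to 55.0% in NPC. Slc2a1 against Slc2a3 was 17.5% to 32.6% in mESC and 26.3% to 66.0% in NPC, and Ldha against Ldhb 63.0% to 81.8% and 47.4% to 88.0%, so both overlapped.

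**Figure D4:**
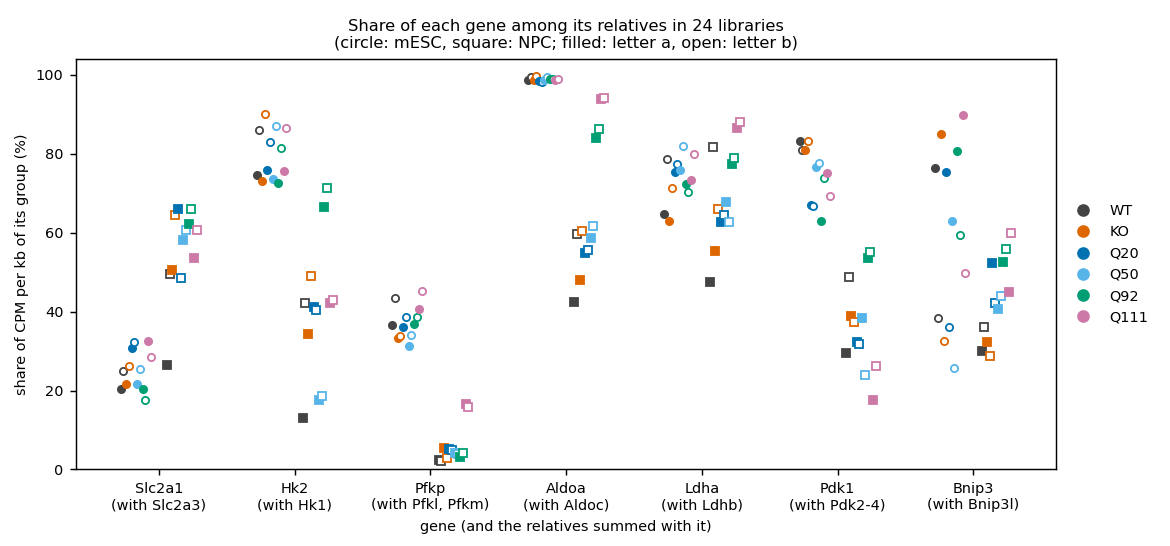
Share of each gene in the summed CPM per kb of its isozymes or nearest relative (y axis, percent) in the 24 libraries, coloured by genotype, with circles for mESC, squares for NPC, filled points for letter a and open points for letter b. Aldoa was 98.1% or more in mESC and spread down to 42.4% in NPC, and Bnip3 in mESC was split by letter.

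The letters in mESC also separated 2 of these shares. Hk2 was 72.5% to 75.9% in a and 81.4% to 90.0% in b, since Hk1 was lower in b while Hk2 was not called. Bnip3 was 62.8% to 89.7% of Bnip3 and Bnip3l together in a and 25.8% to 59.3% in b. Bnip3l encodes the related mitophagy receptor NIX, and was itself lower in b, with a log2 change of -0.57 (limma adjusted p 0.00448).

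Over the 12 mESC libraries the median Pearson r between pairs of the 10 genes was 0.521 on the log2(CPM + 1) scale, with 38 of 45 pairs above 0. The highest was Aldoa with Pgk1, at 0.962, and the lowest Hk2 with Pgk1, at -0.49. These libraries share the letter difference, and over the 6 genotype means the median was 0.199. Over the 12 NPC libraries the median was 0.369, highest for Eno1 with Ldha at 0.94 and lowest for Pfkp with Vegfa at -0.64. The genes outside the set most like the mean of the 10 standardised levels, over 12 libraries and among 10433 genes in mESC, were Arhgap12 (r 0.988), Nubpl (0.984), Malt1 (0.984), Ankra2 (0.983) and Depdc1a (0.983). That mean was 0.277 to 1.00 in the a libraries and -1.05 to -0.228 in the b libraries. A high r in mESC therefore also follows the letters. In NPC, among 10556 genes, the most alike were Ints1 (0.923), Ucp2 (0.915), Nampt (0.905), Cpne7 (0.9) and Slc27a3 (0.897). The mean of the 10 standardised levels in NPC was lowest in WT a, at -1.34, and highest in Q92 b, at 1.24.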

How the data were processed

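Total RNA of the 24 libraries was read as paired ends on a NextSeq 500, per the labels' protocols. Per the submitters' processing notes, CASAVA 1.8, STAR and build GRCm38.p6 were used. The counting tool, annotation and use of strand are not given in the sources used here. The values are a normalised CPM signal that the authors deposited in 1 table per cell type. In every column 100% of values were whole multiples of 1 step (tolerance 0.01), which gave back whole reads, and the scaling matched TMM factors. Of the 17505 and 16025 entries, the first of each repeated identifier was used.

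Genes reaching 1 CPM in 2 or more libraries of a table were tested on log2(CPM + 1), a pseudocount of 1, with limma 3.58.1 and a variance trend in R 4.3.3. Tests were two-sided, with Benjamini-Hochberg adjustment over all genes tested. Genotype fits used the 6 group means without a replicate block; the letter fit added the letter. Alternatives were edgeR 4.0.16 on the recovered reads (quasi-likelihood), median-of-ratios size factors from DESeq2 1.42.0, a pseudocount of 0.5, 2 other filters, the block, both groups alone, WT as reference, other codings of length and leaving out each library. The fits without the WT or Q20 line for any difference among genotypes were chosen after seeing the data. edgeR called 42.4% of all genes between the mESC letters and 36% among the NPC genotypes.

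The letters paired the mESC libraries: the differences between letters correlated at 0.25 to 0.547 in 15 of 15 pairs of genotypes. On simulated data, limma recovered 93.5% of 200 genes changed by a log2 of 1 between the mESC letters (13916 genes). For a log2 of 2 it recovered 99.5% of 200 in KO against WT in NPC (13206 genes) and 76.6% of 197 in the NPC minus mESC difference in KO against WT (12321 genes). False calls numbered 12, 9 and 15 in that order. The simulated counts had 1 fixed spread for all genes, and only genes above a mean of 5 CPM were changed. These shares therefore do not give the power for genes whose libraries lay far apart, such as Hk2 in WT NPC.

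The 10 genes and the gene lists were chosen with earlier results of these data known. Apart from the 10, the rule named per list and comparison at most 3 higher and 3 lower called genes of at least 5 CPM whose groups did not overlap, marker genes, and the 5 genes most like the mean of the 10. Lengths are those of the longest GENCODE M21 transcript with a consensus coding sequence. Python 3.11.15 and pandas 2.3.3 were used for counts and sums.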

Additional observations from a re-analysis of the deposited data

Results flagged for a closer look

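Slc2a1 was marked in 2 comparisons because its genotype effect in NPC differed from that in mESC by a test of the difference itself. For Q20 against WT the difference, NPC minus mESC, was 2.84 on the log2 scale (limma adjusted p 0.00722, 0.000325 to 0.0381 over 30 alternatives). For Q111 against Q20 it was -2.21 (limma adjusted p 0.0334, 0.0032 to 0.142 over 30 alternatives). Both rest on the Q20 NPC libraries, in which Slc2a1 was 146 and 135 CPM and the pluripotency gene Pou5f1 90.1 and 87.4 CPM; the part of these cells in the difference was not tested.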

How the results depend on the processing

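With 2 libraries per group, the calls in NPC moved with the libraries in the fit, while in mESC the letter difference stayed at 7 to 8 calls when any library was left out. Leaving out 1 library gave, among the 10 genes in NPC, 0 to 2 calls for KO against WT, 2 to 4 for Q20 against WT, 0 to 3 for Q50, 0 to 6 for Q92 and 0 to 3 for Q111 against Q20, 1 to 2 for the trend and 1 to 8 for any difference. For the NPC minus mESC differences it gave 0 to 1 for KO, 1 to 2 for Q20 against WT, 0 to 2 for Q50, 0 to 0 for Q92, 0 to 2 for Q111 and 0 to 1 for the trend. The share of all genes called moved as well. It ran from 36.1% to 41.6% for the mESC letters and from 9.19% to 21.9% for the NPC trend. For Q20, Q50, Q92, Q111 and any difference in NPC, shares stand beside the counts above. The 2 calls for KO came without WT b, which left WT with 1 library, and are not read as a result. For the cell type differences the share was not computed. These counts are therefore not read as a trait of the 10 genes. With both groups alone the NPC counts were 0 for Q20 against WT, 3 for Q50, 5 for Q92 and 6 for Q111. The shares of all genes were 3.6%, 29.7%, 46.6% and 50.8%. With WT as reference they were 0 for Q50 and 0 for Q92, and 4 changes turned sign: Slc2a1 to 1.32 in Q50, 1.67 in Q92 and 0.83 in Q111, and Pfkp to 0.78 in Q92. That follows from the change of reference. For the NPC trend, 1 mean value per line gave 0 and leaving out the Q20 line gave 0, with no share of all genes computed for either. For any difference in NPC, leaving out the WT line gave 7, beside 56.3% of all genes. A filter at a mean of 5 CPM gave 0 for the Q111 difference between cell types. With the letter as a replicate block the count was 2 for Q20 against WT in mESC, beside 10.6% of all genes. It was 1 for the NPC trend, beside 15.3%. For the cell type differences in Q20, Q50, Q92 and Q111 it was 2, 1, 1 and 2, beside 10.7%, 11.3%, 14.6% and 16.6%. In NPC the letter differences of 15 pairs of genotypes correlated at -0.0495 to 0.467, with 3 above 0.1, so the letters were not taken as pairs. With the block there, Slc2a1 was called for Q92 against Q20 (limma adjusted p 0.0385) and Pfkp was not (limma adjusted p 0.0552). The cause of these changes was not tested. Over all alternatives, 414 counts of calls stayed within 1.5 times the reported count and 64 did not; for single genes 570 values kept direction and side of the threshold, 53 lost the call, 17 gained it and 4 turned sign.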
